A study of Homo sapiens with 28 samples.

Results

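The members of the naive pluripotency transcription factor network followed here are 9 genes, measured in human embryonic stem (ES) and embryonal carcinoma (EC) cell lines. They are TFCP2L1, KLF2, KLF4, KLF5, KLF17, NR5A2, ESRRB, PRDM14 and TBX3. They were taken by symbol from a list of named factors, and each had 1 gene-level transcript cluster, so 9 of 14220 measured genes, 9 of 22011 clusters and 121 of 287329 exon-level probesets were members. ES lines are derived from embryos and EC lines from germ cell tumours, and the study compared their RNA on Affymetrix Human Exon 1.0 ST arrays. The 14 arrays held 3 EC lines grown on feeders (NTERA2, 2102Ep and 833KE), 5 EC lines grown on plastic (NCCIT, 2102Ep, 833KE, TERA1 and NTERA2) and 6 ES lines grown on feeders (H14, Shef5, Shef 6, Shef3, H9 and Shef7). The feeders were mouse embryo fibroblasts inactivated with mitomycin C, and cells on them, EC and ES alike, received FGF at 4 ng/ml and Serum Replacement at 10% in knock-out DMEM. The EC cells in plastic flasks received FCS at 10% in DMEM of high glucose. Every culture was sorted by FACS for SSEA3, a surface marker of pluripotent cells, before RNA extraction. Within a group each array is another line, so an SD is the spread between lines; 3 EC lines were grown both ways.

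Naive pluripotency is the state of the cells of the preimplantation epiblast, and primed pluripotency the later state in which human ES lines are usually kept. In mouse ES cells the naive state is held by a network of transcription factors that sits beside OCT4, SOX2 and NANOG and is fed by LIF and STAT3 signalling. TFCP2L1, KLF2, KLF4, KLF5, NR5A2, ESRRB, PRDM14 and TBX3 are known members of that network in mouse, and KLF17 is a marker of the naive state in human cells.

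The groups were first checked against pluripotency markers. The mean log2 value over 8 measured marker genes, among them LIN28A, DPPA4 and SALL4, lay between 10.15 and 10.81 in EC cells on feeders, between 10.11 and 11.24 in EC cells on plastic, and between 9.95 and 11.07 in ES cells. No gene-level cluster carried the symbol of POU5F1, NANOG or SOX2 alone, so these were read from their brightest probesets. NANOG had a median of 11.59 in EC cells on feeders, 12.48 in EC cells on plastic and 11.21 in ES cells. POU5F1 had medians of 9.58 in EC cells on feeders, 9.18 in EC cells on plastic and 8.57 in ES cells, and SOX2 had medians of 11.10 in EC cells on feeders, 11.50 in EC cells on plastic and 11.62 in ES cells. None of the 8 markers passed the test in any comparison.

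The sequences upstream of the members that differed most between lines are shown so that their base composition and motifs can be read. They are the 250 bases before the annotated start, 5′ to 3′ on the strand of the gene, from RefSeq on build GRCh38.p14. Capitals mark the letters of a GC box (GGGCGG, bound by the SP and KLF family) or of a longer KLF motif (GGGNGTGG), on either strand. TFCP2L1 lies on the minus strand at chr2:121285203-121285452, KLF4 on the minus strand at chr9:107489770-107490019, KLF17 on the plus strand at chr1:44118571-44118820, and NR5A2 on the plus strand with 2 annotated starts, at chr1:200027460-200027709 and chr1:200042341-200042590.
TFCP2L1: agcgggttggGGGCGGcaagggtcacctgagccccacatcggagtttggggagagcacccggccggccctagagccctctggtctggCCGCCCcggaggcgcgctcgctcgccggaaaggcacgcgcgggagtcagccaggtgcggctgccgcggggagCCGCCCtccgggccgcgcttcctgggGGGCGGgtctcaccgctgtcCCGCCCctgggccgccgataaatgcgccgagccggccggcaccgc
KLF4: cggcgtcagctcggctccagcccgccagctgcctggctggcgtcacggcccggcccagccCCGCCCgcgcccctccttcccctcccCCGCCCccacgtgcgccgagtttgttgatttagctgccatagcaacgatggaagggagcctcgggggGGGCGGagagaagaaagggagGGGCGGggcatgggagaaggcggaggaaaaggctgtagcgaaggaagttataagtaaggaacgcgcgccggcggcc
KLF17: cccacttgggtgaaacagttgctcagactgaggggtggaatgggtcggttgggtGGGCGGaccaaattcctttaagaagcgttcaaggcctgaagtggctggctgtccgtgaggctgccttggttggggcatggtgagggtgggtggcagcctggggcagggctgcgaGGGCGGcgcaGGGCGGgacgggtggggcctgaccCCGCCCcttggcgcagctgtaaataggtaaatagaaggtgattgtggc
NR5A2 start 1: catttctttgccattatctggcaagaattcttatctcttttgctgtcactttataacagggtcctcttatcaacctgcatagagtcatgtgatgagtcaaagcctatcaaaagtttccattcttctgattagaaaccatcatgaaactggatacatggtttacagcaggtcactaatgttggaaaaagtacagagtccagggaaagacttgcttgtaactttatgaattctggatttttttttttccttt
NR5A2 start 2: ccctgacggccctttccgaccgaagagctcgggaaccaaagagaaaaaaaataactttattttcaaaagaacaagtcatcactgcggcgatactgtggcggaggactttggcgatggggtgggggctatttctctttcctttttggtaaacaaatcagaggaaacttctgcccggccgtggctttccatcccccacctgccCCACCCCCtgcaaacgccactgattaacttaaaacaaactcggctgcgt
The GC box occurred 5 times upstream of TFCP2L1, 4 times upstream of KLF4 and 4 times upstream of KLF17, and was absent from both NR5A2 windows. NR5A2 start 2 had 1 KLF motif, and start 1 had neither. Of 35116 promoters of this length, 42.6% held a GC box and 15.7% held the KLF motif. The windows also differed in GC content, which was 76.8% for TFCP2L1, 69.2% for KLF4, 62.8% for KLF17, 36.0% for NR5A2 start 1 and 50.8% for NR5A2 start 2, against a median of 58.0% over all promoters. The octamer ATGCAAAT and the nuclear receptor motif AAGGTCA, searched on both strands, matched no window of the 7 members that had a promoter entry. The octamer occurred in 1.63% of all promoters and AAGGTCA in 3.44%. A match is a description of letters and not a binding site.

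NR5A2, TFCP2L1 and KLF4 were higher in EC cells on plastic than in ES cells. On the deposited log2 scale the differences were 2.39 for NR5A2, 2.31 for TFCP2L1 and 1.74 for KLF4. At an unadjusted p below 0.05 there were 5 of 9 members, against 19.2% of all clusters. After adjustment 3 of 9 members were called higher and 0 lower, where 3.26% of all 22011 clusters were called higher and 1.34% lower by the same limma test, at an adjusted p below 0.05. The median difference of the 9 members was 0.62, against 0.005 over all clusters. In the same 3 members every EC line on plastic lay above every ES line, as it did in 2.85% of all clusters. Cell type and growth condition differ together in this comparison and cannot be told apart in it. More cells with a transcript and more transcript per cell cannot be told apart in arrays of whole cultures.

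**Figure D1:**
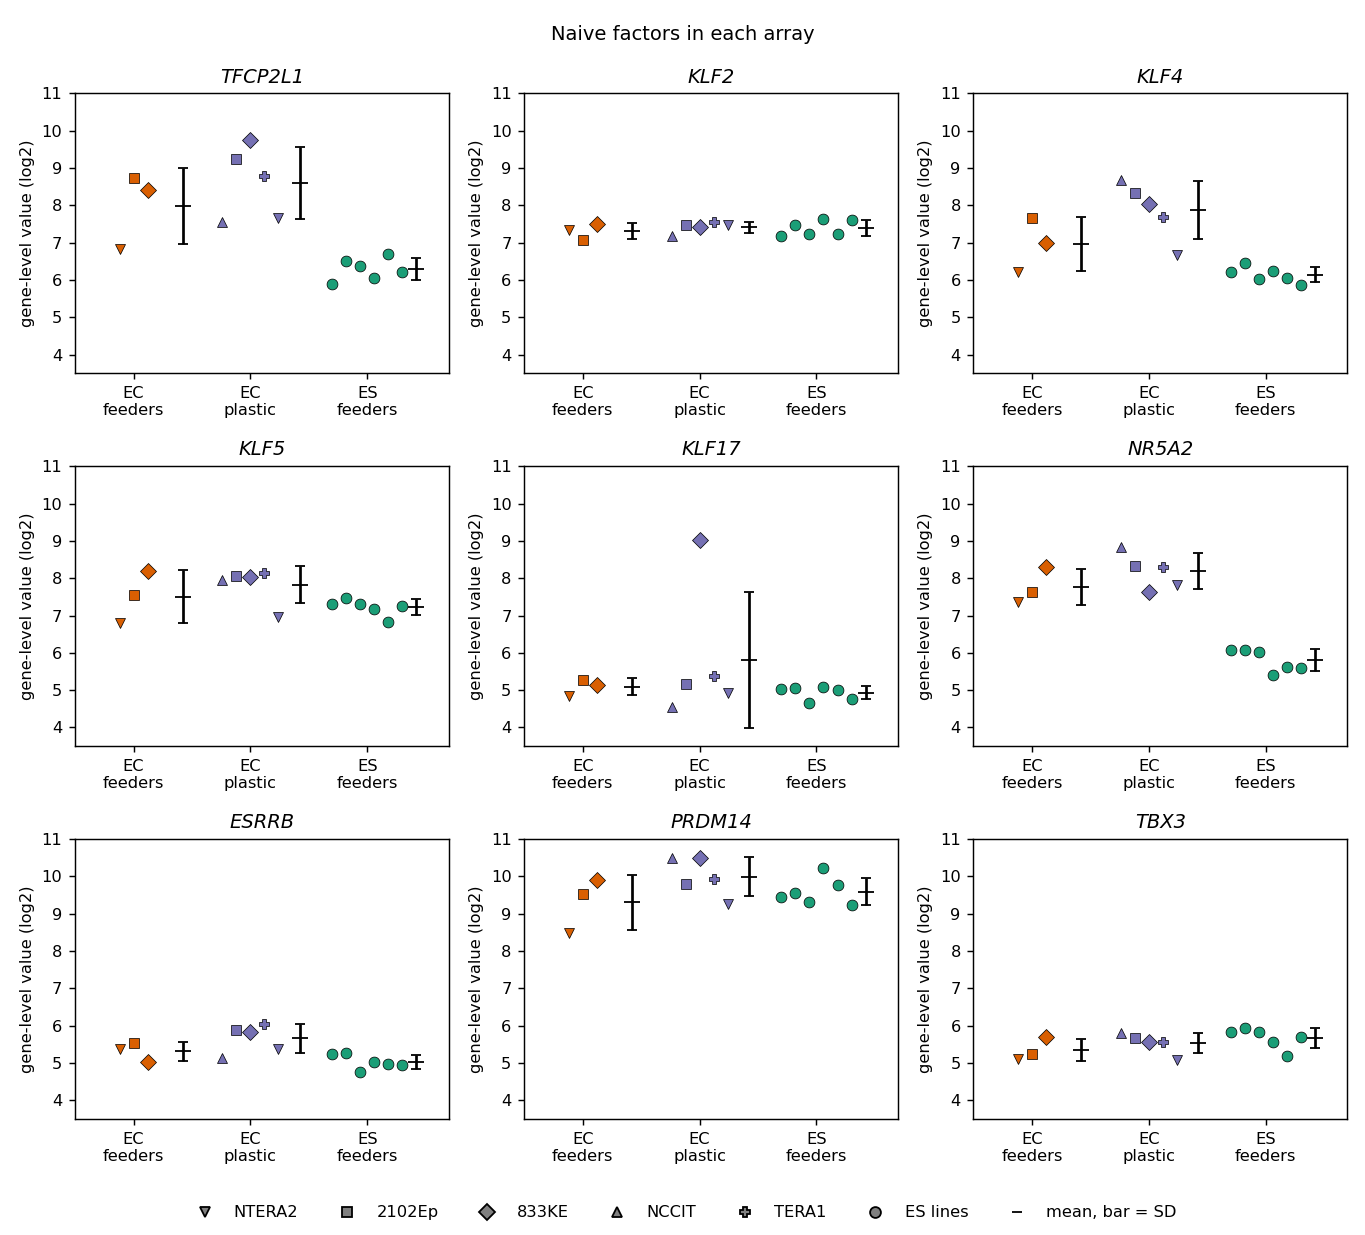
Gene-level log2 values of the 9 naive factors in each of the 14 arrays, by group, with symbols for the lines and the group mean with its SD. NR5A2, TFCP2L1 and KLF4 lie above the ES values in all 5 EC lines on plastic, and KLF17 stands at 9.01 in 833KE on plastic alone.

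NR5A2, a nuclear receptor that can replace OCT4 in the reprogramming of mouse cells, had log2 values of 8.85 in NCCIT, 8.34 in 2102Ep, 7.63 in 833KE, 8.31 in TERA1 and 7.81 in NTERA2 on plastic. In the 6 ES lines its lowest value was 5.41, its median 5.83 and its highest 6.07. The lowest EC line was thus well above the highest ES line, and the groups did not overlap. The means were 8.19 ± 0.48 in EC cells on plastic (SD, n = 5) and 5.80 ± 0.29 in ES cells (SD, n = 6). The difference of 2.39 (SE 0.22) is 5.23-fold (limma, adjusted p = 0.000394).

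TFCP2L1, a CP2-family factor that acts downstream of LIF and STAT3 in mouse ES cells, had log2 values of 7.56 in NCCIT, 9.25 in 2102Ep, 9.76 in 833KE, 8.78 in TERA1 and 7.65 in NTERA2 on plastic. In the ES lines the lowest value was 5.89, the median 6.30 and the highest 6.70. All EC lines were above all ES lines, with NCCIT and NTERA2 nearest to them. The means were 8.60 ± 0.97 in EC cells on plastic (SD, n = 5) and 6.29 ± 0.30 in ES cells (SD, n = 6). The difference of 2.31 (SE 0.37) is 4.97-fold (limma, adjusted p = 0.00643).

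KLF4, a zinc-finger factor of the classical reprogramming set, had log2 values of 8.67 in NCCIT, 8.33 in 2102Ep, 8.04 in 833KE, 7.69 in TERA1 and 6.66 in NTERA2 on plastic. In the ES lines the lowest value was 5.87, the median 6.13 and the highest 6.46. NTERA2 came close to the highest ES line, Shef5, and the other EC lines lay more than 1 unit above it. The means were 7.88 ± 0.77 in EC cells on plastic (SD, n = 5) and 6.14 ± 0.21 in ES cells (SD, n = 6). The difference of 1.74 (SE 0.29) is 3.34-fold (limma, adjusted p = 0.00761). NR5A2, TFCP2L1 and KLF4 each passed the test in all 19 alternative settings. With only arrays of the later label codes (17 or higher) their differences were 2.52, 2.27 and 1.84.

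KLF5 and KLF2 did not pass the test. KLF5, which acts beside KLF2 and KLF4 in mouse ES cells, had log2 values of 7.96 in NCCIT, 8.06 in 2102Ep, 8.04 in 833KE, 8.13 in TERA1 and 6.96 in NTERA2 on plastic, against a lowest of 6.84, a median of 7.28 and a highest of 7.46 in ES cells. So 4 EC lines were above every ES line and NTERA2 lay within the ES range. The difference of 0.61 did not pass (limma, adjusted p = 0.132), and without NTERA2 it was 0.82 and passed (adjusted p = 0.00732). KLF2, a target of MEK5 and ERK5 signalling in mouse ES cells, spanned only 0.55 over all 14 arrays. Its means were 7.41 ± 0.14 in EC cells on plastic (SD, n = 5) and 7.39 ± 0.21 in ES cells (SD, n = 6), and the 95% interval of the difference ran from -0.26 to 0.30. Under 8 of 19 alternatives its sign turned.

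ESRRB, an orphan nuclear receptor that is a core naive factor in mouse, had log2 values of 5.15 in NCCIT, 5.90 in 2102Ep, 5.83 in 833KE, 6.05 in TERA1 and 5.37 in NTERA2 on plastic, against a lowest of 4.75, a median of 5.01 and a highest of 5.26 in ES cells. Only NCCIT overlapped the ES lines. The difference of 0.62 did not pass (limma, adjusted p = 0.0713), and without NCCIT it was 0.75 and passed (adjusted p = 0.0212). PRDM14, a repressor needed for human ES cell maintenance and for germ cell specification in mouse, averaged 9.99 ± 0.52 in EC cells on plastic (SD, n = 5) and 9.59 ± 0.37 in ES cells (SD, n = 6), a difference of 0.40 (limma, adjusted p = 0.429). TBX3, a T-box factor, averaged 5.53 ± 0.28 in EC cells on plastic (SD, n = 5) and 5.67 ± 0.27 in ES cells (SD, n = 6), a difference of -0.14 (limma, adjusted p = 0.732). For PRDM14 the 95% interval of the difference ran from -0.14 to 0.94, and for TBX3 from -0.51 to 0.23. Every ESRRB and TBX3 value was below 6.19, the lowest of the array medians over all clusters. So was every ES value of NR5A2, the highest being 6.07. Some ES values of TFCP2L1 and KLF4 were also below it, with lowest values of 5.89 and 5.87. How far such values stand over background is unknown, since no detection p-value was used. The fold differences of NR5A2, TFCP2L1 and KLF4 from ES cells carry this limit too.

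KLF17 was high in 1 array. Its log2 values were 4.54 in NCCIT, 5.18 in 2102Ep, 9.01 in 833KE, 5.37 in TERA1 and 4.91 in NTERA2 on plastic. The ES lines had a lowest value of 4.66, a median of 5.01 and a highest of 5.08. Only 833KE on plastic stood apart, and the other 13 arrays were below the lowest array median of 6.19. The difference between EC cells on plastic and ES cells was 0.87 (limma, adjusted p = 0.523), and it was 0.067 without 833KE. The value of 833KE on plastic lay 3.64 above the next array. Of 22011 clusters, 32 were highest in that array by at least 1, and KLF17 had the second largest of these gaps. The same count was 4 in the ES line Shef3 and 208 in NCCIT, the lowest and highest of the 14 arrays.

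NR5A2 and TFCP2L1 were also higher in EC cells on feeders than in ES cells. NR5A2 differed by 1.96 and TFCP2L1 by 1.70 on the log2 scale, so 2 of 9 members were called higher and 0 lower, where 1.56% of all clusters were called higher and 0.731% lower (limma, adjusted p below 0.05). Their values in the 3 EC lines all lay above every ES value, as was so for 5.78% of all clusters. Both groups had the same feeders and medium here. The ES arrays are the same ones as in the comparison with EC cells on plastic, so the 2 comparisons share them. The 3 EC lines are also among those grown on plastic. At an unadjusted p below 0.05 there were 3 of 9 members, against 17.6% of all clusters. The median difference of the 9 members was 0.28, against 0.042 over all clusters.

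NR5A2 had log2 values of 7.35 in NTERA2, 7.63 in 2102Ep and 8.29 in 833KE on feeders, with a mean of 7.76 ± 0.48 (SD, n = 3), against 5.80 ± 0.29 in ES cells (SD, n = 6). The difference of 1.96 (SE 0.24) is 3.88-fold (limma, adjusted p = 0.00580). It passed in 16 of 17 alternatives. With the arrays of later label codes, which leave 833KE as the only EC array, it was 2.63 (adjusted p = 0.0197). With the arrays of earlier codes (13 or lower), 2 against 2, it was 1.42 and did not pass (adjusted p = 0.251).

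TFCP2L1 had log2 values of 6.82 in NTERA2, 8.73 in 2102Ep and 8.41 in 833KE on feeders, with a mean of 7.99 ± 1.02 (SD, n = 3), against 6.29 ± 0.30 in ES cells (SD, n = 6). NTERA2 was only just above the highest ES line, H9, at 6.70. The difference of 1.70 (SE 0.37) is 3.24-fold and passed narrowly (limma, adjusted p = 0.0446). The call was lost in 12 of 17 alternatives. It was lost without 2102Ep (adjusted p = 0.156) and without 833KE (0.109). It was also lost without H14 (0.0722), Shef5 (0.0554), Shef 6 (0.0914), Shef3 (0.0998), H9 (0.0590) or Shef7 (0.0912), and it was kept without NTERA2 (0.00202). The differences in those fits ran from 1.33 to 2.28. With the label code as a block the difference was 1.80 (adjusted p = 0.0554), and it was 2.07 in later-coded (0.0355) and 1.58 in earlier-coded arrays (0.498).

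KLF4 had log2 values of 6.22 in NTERA2, 7.66 in 2102Ep and 7.0 in 833KE on feeders, with a mean of 6.96 ± 0.72 (SD, n = 3), against 6.14 ± 0.21 in ES cells (SD, n = 6). NTERA2 lay within the ES range. The difference of 0.82 did not pass (limma, adjusted p = 0.154). Without NTERA2 it was 1.19 and passed (adjusted p = 0.0280). The other 6 members differed from ES cells by -0.32 for TBX3 up to 0.28 for KLF5 and ESRRB, and none passed. KLF17 averaged 5.09 ± 0.22 in EC cells on feeders (SD, n = 3), with 5.15 in 833KE, against 4.93 ± 0.17 in ES cells (SD, n = 6).

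**Figure D2:**
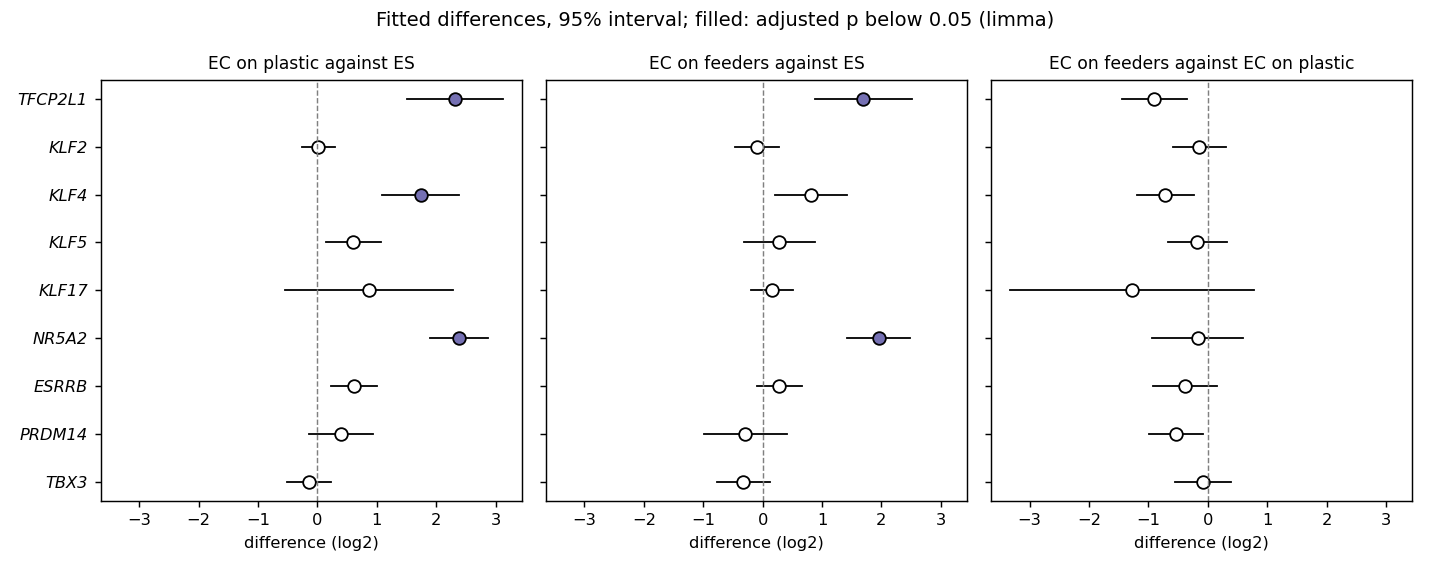
Fitted log2 differences of the 9 naive factors in the 3 comparisons, with 95% intervals; filled points had an adjusted p below 0.05 (limma). Filled points are NR5A2, TFCP2L1 and KLF4 for EC cells on plastic against ES cells, NR5A2 and TFCP2L1 for EC cells on feeders against ES cells, and none between the 2 growth conditions.

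The 3 EC lines grown both ways allow feeders and plastic to be compared within a line. In NTERA2 and 2102Ep the array on feeders has an earlier label code (11 and 13) and the array on plastic a later one (25 and 19), so code and growth cannot be told apart in them, and only 833KE has later codes for both (27 on feeders and 21 on plastic). No cluster of 22011 passed the test on feeders against plastic with line as a block (limma), although 3276 clusters, 14.9%, had an unadjusted p below 0.05. Among the members TFCP2L1, KLF4 and PRDM14, 3 of 9, had such a p. TFCP2L1, KLF4, PRDM14 and ESRRB were lower on feeders in all 3 lines, 4 of 9 members, where 18.1% of all clusters were. The median difference of the members was -0.39, against 0.022 over all clusters. Other lists were not all near 0 either. The median was -0.40 over 10 naive state markers, -0.31 over the 8 pluripotency markers and 0.01 over 18 primed state markers. Of the 8 pluripotency markers 3 had an unadjusted p below 0.05 (limma). A lower value on feeders was thus not particular to the members. By line, 8 of 9 members were lower on feeders in 2102Ep, where 46.5% of all clusters were, 8 of 9 in NTERA2, against 48.4%, and 5 of 9 in 833KE, against 49.5%.

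TFCP2L1 had 8.73 on feeders and 9.25 on plastic in 2102Ep, 8.41 on feeders and 9.76 on plastic in 833KE, and 6.82 on feeders and 7.65 on plastic in NTERA2. The mean difference was -0.90 (SE 0.22, unadjusted p = 0.00759, adjusted p = 0.2503, limma). KLF4 had 7.66 on feeders and 8.33 on plastic in 2102Ep, 7.0 on feeders and 8.04 on plastic in 833KE, and 6.22 on feeders and 6.66 on plastic in NTERA2. All 3 lines had the lower value on feeders for both genes. The mean difference of KLF4 was -0.71 (SE 0.19, unadjusted p = 0.0116, adjusted p = 0.266, limma). PRDM14 differed by -0.27 in 2102Ep, -0.58 in 833KE and -0.77 in NTERA2, with a mean of -0.54 (unadjusted p = 0.0277, adjusted p = 0.295, limma). ESRRB differed by -0.36 in 2102Ep and -0.80 in 833KE, and by only -0.001 in NTERA2. KLF4 passed against ES cells on plastic and not on feeders, and the difference between these growth conditions, tested here in the 3 shared lines, did not pass.

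NR5A2 did not move in 1 direction: it was lower on feeders by 0.71 in 2102Ep and by 0.46 in NTERA2, and higher on feeders by 0.66 in 833KE. In KLF17 the line 833KE had 5.15 on feeders and 9.01 on plastic, a difference of -3.86, or 14.5-fold lower. The other 2 lines differed by 0.11 in 2102Ep and -0.06 in NTERA2. The mean difference of KLF17 was -1.27 (limma, adjusted p = 0.514) and turned to 0.022 without 833KE. Fibroblast markers were measured beside these values: the mean over 14 genes lay between 5.63 and 5.80 in EC cells on feeders, between 5.03 and 5.41 in EC cells on plastic, and between 5.55 and 6.48 in ES cells. Their median difference between feeders and plastic was 0.44. Of the 14, 6 had an unadjusted p below 0.05 (limma), each higher on feeders, against 14.9% of all clusters. None of the 14 passed after adjustment, as no cluster did. Their part in the members' differences was not tested.

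**Figure D3:**
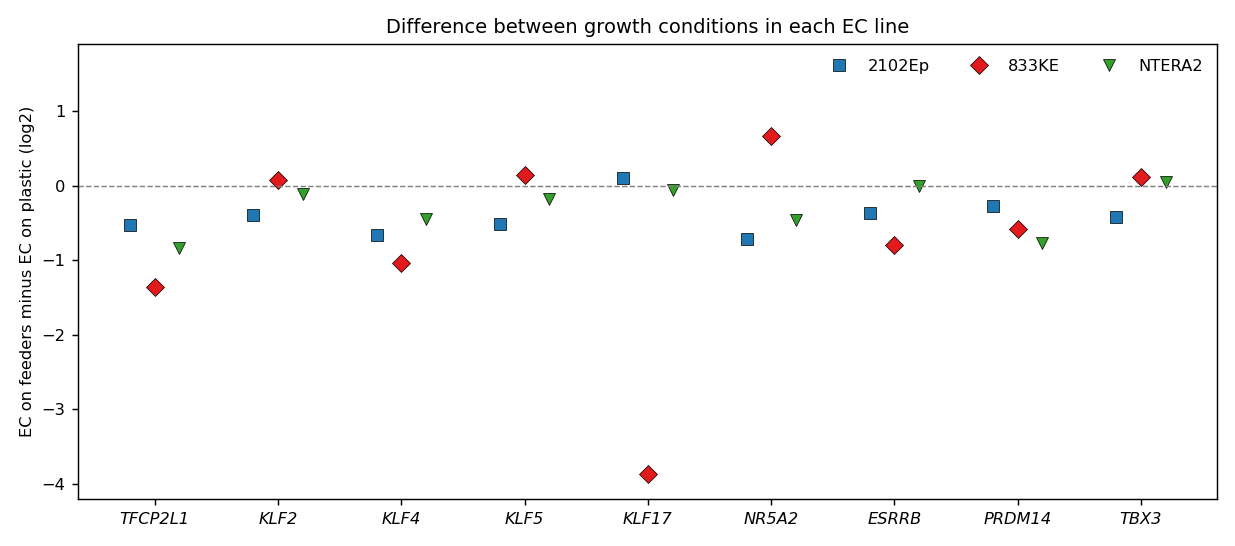
Difference between EC cells on feeders and EC cells on plastic in log2 units, for each of the 9 naive factors in the 3 lines grown both ways; values below 0 are lower on feeders. KLF17 in 833KE stands at -3.86, and TFCP2L1, KLF4 and PRDM14 lie clearly below 0 in all 3 lines.

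The lines did not carry the factors in the same mix. The count of members above the highest ES line was 6 of 9 in 2102Ep, 5 in 833KE and 3 in NTERA2 on feeders, where 27.9%, 19.2% and 25.2% of all clusters lay above it. On plastic it was 7 of 9 in 833KE, 6 in 2102Ep, 6 in TERA1, 5 in NCCIT and 4 in NTERA2, where between 20.6% and 24.1% of all clusters did. Below the lowest ES line were KLF5, PRDM14 and TBX3 in NTERA2 and KLF2 in 2102Ep on feeders, and KLF17 in NCCIT and TBX3 in NTERA2 on plastic. Between 15.8% and 23% of all clusters lay below it in the 8 EC arrays. NTERA2 had the lowest value of the 3 lines on feeders for 7 of 9 members, all but KLF2 and ESRRB, and the lowest of the 5 lines on plastic for KLF4, KLF5, PRDM14 and TBX3. NCCIT had the highest KLF4 and NR5A2 on plastic and the lowest TFCP2L1. In contrast, 833KE on plastic had the highest TFCP2L1 and the lowest NR5A2 of the 5 lines, and its KLF4 was in the middle. These orders rest on 1 array for each line and have no test. How many of all clusters were lowest or highest in each line was not counted, so the orders cannot be read as particular to the members.

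Exon-level probesets are named by number, and they were not placed on exons here. In EC cells on plastic against ES cells, 36 of the 121 member probesets were called higher and 0 lower, where 2.07% of all 287329 probesets were called higher and 0.745% lower (limma, adjusted p below 0.05). They were 15 of 19 for TFCP2L1, 10 of 13 for NR5A2, 9 of 11 for KLF4, 1 of 14 for KLF5, 1 of 11 for ESRRB, and 0 for KLF2, KLF17, PRDM14 and TBX3. In EC cells on feeders, 14 of 121 were called higher, 9 of NR5A2 and 5 of TFCP2L1, and 0 lower, where 0.61% of all probesets were called higher and 0.344% lower. No probeset was called between feeders and plastic, but simulated differences were not recovered at exon level in that comparison either. Lower on feeders in all 3 lines were 50 of 121 member probesets, against 19.6% of all probesets, among them 16 of 19 of TFCP2L1, 10 of 14 of PRDM14 and 8 of 11 of KLF4.

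**Figure D4:**
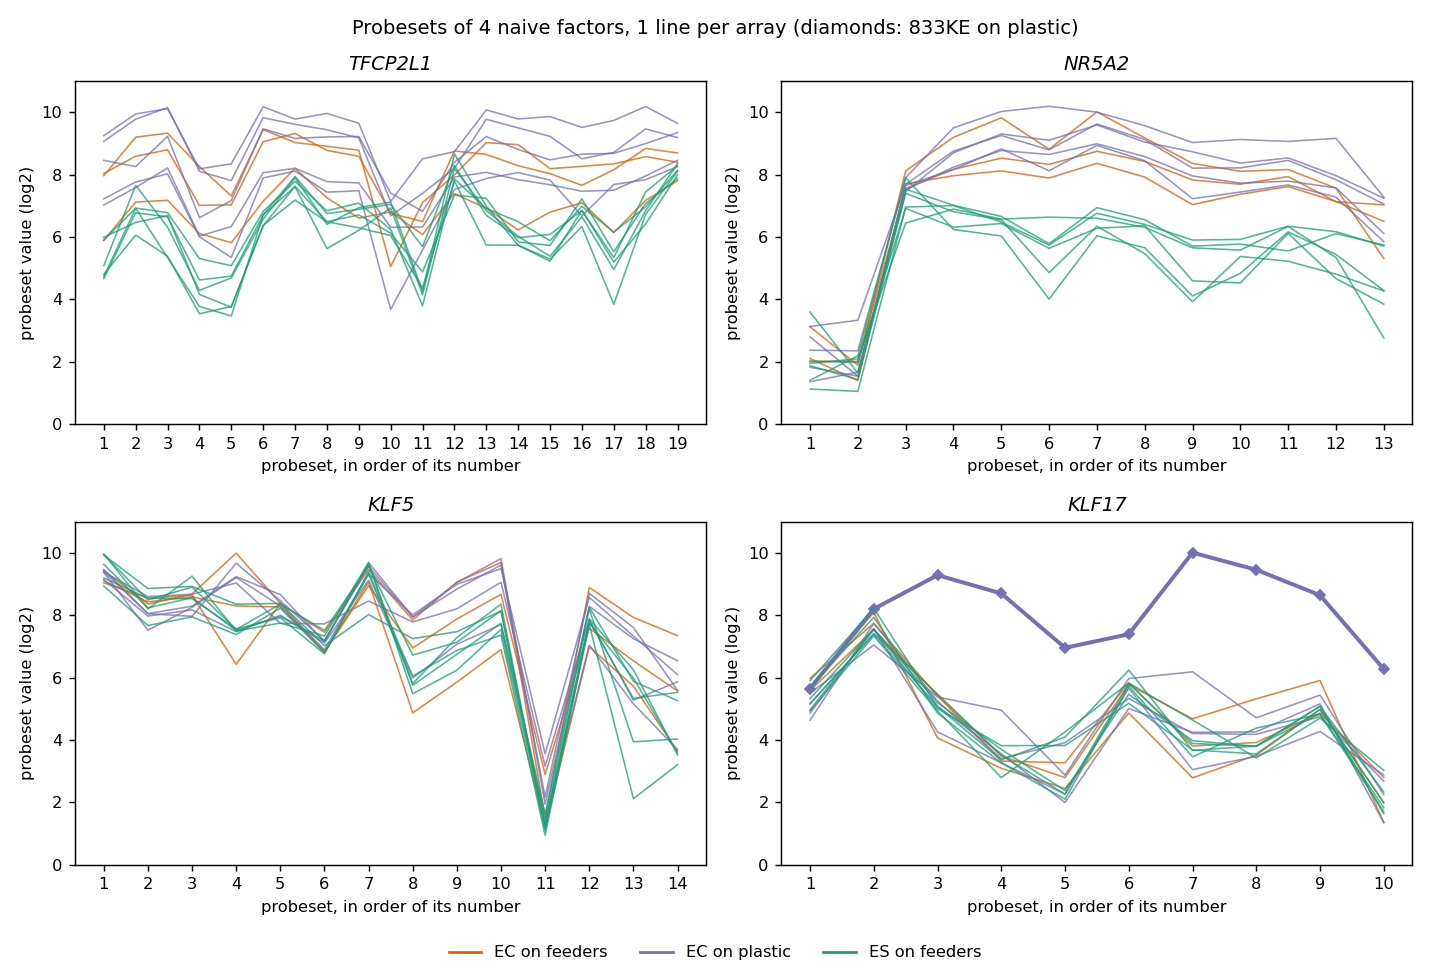
Log2 values of every probeset of TFCP2L1, NR5A2, KLF5 and KLF17, in order of probeset number, with 1 line for each of the 14 arrays, coloured by group. Against ES, 10 of 13 NR5A2 probesets were called higher in EC on plastic and 9 of 13 in EC on feeders. For TFCP2L1 these counts were 15 of 19 and 5 of 19. Of all probesets, 2.07% were called higher on plastic and 0.61% on feeders (limma, adjusted p below 0.05). The first 2 probesets of NR5A2 are between 1.05 and 3.59 in all arrays, and 833KE on plastic stands apart in 8 of 10 KLF17 probesets.

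NR5A2 showed 3 kinds of probeset. Probesets 2374138 and 2374139 had values between 1.05 and 3.59 in all arrays. Probeset 2374157 averaged 7.64 ± 0.17 in EC cells on plastic (SD, n = 5) and 7.19 ± 0.52 in ES cells (SD, n = 6), which did not pass (limma, adjusted p = 0.412). The 10 that followed were called, with differences from 1.96 to 3.53 and the largest at 2374165. For TFCP2L1 the 4 that were not called were 2573614, 2573616, 2573623 and 2573635, with differences of -0.34, 0.13, 1.35 and 0.86, and the called ones ran from 1.30 to 3.29.

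Exon usage was tested as the difference of each probeset from the others of its gene, between EC cells on plastic and ES cells. By limma's diffSplice 406 of 188940 probesets were called, 0.215%, and 4 of them belonged to members. These were NR5A2 2374157 (-2.33 relative to the other probesets of its gene), TFCP2L1 2573614 (-2.45) and 2573616 (-1.95), and KLF4 3219234 (-1.995). In simulated data diffSplice also made 250 calls in genes that had not been changed. A fit that keeps the variance of each probeset, chosen after seeing the data, called 59 probesets, of which 1 was a member, TFCP2L1 2573616 (limma, adjusted p = 0.0424). In that fit KLF4 3219234 had an adjusted p of 0.0514, NR5A2 2374157 of 0.0528 and TFCP2L1 2573614 of 0.0601, so these 3 calls were lost.

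The KLF5 probesets are grouped here for description, after their values were seen. Probesets 3493547, 3493548, 3493549, 3493551, 3493552 and 3493553 differed by -0.42 to 0.13 between EC cells on plastic and ES cells. Probesets 3493550, 3493557, 3493558, 3493559, 3493571 and 3493572 differed by 1.25 to 1.61, and of these 3493558 passed (1.47, limma, adjusted p = 0.0443). Of the other 2 probesets, 3493570 differed by 0.16 although its number lies among the higher ones, and 3493561 had values of 3.56 or less in all arrays. No KLF5 probeset was called for exon usage by diffSplice (lowest adjusted p = 0.384) or by the fit with a variance for each probeset (lowest adjusted p = 0.191). At 3493559 the values were 9.06 in NCCIT, 9.497 in 2102Ep, 9.82 in 833KE, 9.61 in TERA1 and 7.70 in NTERA2 on plastic, against 7.36 in H9 to 8.36 in H14 among the ES lines. NTERA2 alone of the EC lines lay within the ES range there. In ESRRB probeset 3545058 passed, with 6.40 ± 0.49 in EC cells on plastic (SD, n = 5) and 5.00 ± 0.46 in ES cells (SD, n = 6) (limma, adjusted p = 0.0208).

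In KLF17 the high array stood apart in 8 of 10 probesets. Probeset 2333785 had 10.01 in 833KE on plastic, where the next array, TERA1 on plastic, had 6.19 and 833KE on feeders had 4.68. Probeset 2333787 had 9.46 in 833KE on plastic and 5.32 in 833KE on feeders, the next highest array. Probesets 2333778 and 2333779 did not follow, with 5.65 and 8.20 in 833KE on plastic, each within the range of the other arrays.

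The genes whose gene-level values most resembled each member over the 14 arrays are given as a description, by Pearson correlation among 9264 genes with a range of at least 1. For KLF17 they were SPZ1 (r = 0.978), DCAF4L2 (0.969) and PKD1L1 (0.967), and these correlations rest on 833KE on plastic. DCAF4L2 had 8.49 there, and its highest value was 4.65 in EC cells on feeders and 4.82 in ES cells. For TFCP2L1 they were GALNT8 (0.981), LMO4 (0.953) and SNX2 (0.947). GALNT8, a glycosyltransferase gene, ran from 5.44 to 6.94 in EC cells on feeders, from 5.81 to 7.62 in EC cells on plastic, and from 4.43 to 4.82 in ES cells. For NR5A2 they were PHKA1 (0.945), MED8 (0.943) and IGSF11 (0.934), and for KLF4 they were SELENOF (0.941), MITF (0.937) and ZMPSTE24 (0.930). KLF5 was followed by MOSPD1 (0.912), NFE4 (0.899) and BCAP31 (0.897), ESRRB by CCDC137 (0.946), OR52N4 (0.919) and C1orf174 (0.914), and PRDM14 by SPPL2A (0.895), ETF1 (0.868) and ATG12 (0.863). The arrays share groups and lines, so these values carry no test. Some of the genes had low values. OR52N4 reached at most 3.74 and MITF at most 5.575 in any array. SPZ1 had medians of 2.43 in EC cells on feeders, 2.56 in EC cells on plastic and 2.41 in ES cells. How far these stand over background is unknown.

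Other genes of the naive and primed states were read from lists that were chosen with earlier results of these data known. The naive list held 20 genes, of which 10 were measured by a gene-level cluster with that symbol alone. Not measured were DPPA3, DPPA5, ARGFX, KHDC1L, KHDC3L, OOEP, ALPG, ALPP, OLAH and FAM151A, so the list covers only part of the naive state. Of 10 measured naive state markers, 2 were called higher and 0 lower in EC cells on plastic against ES cells, with a list median of 1.12. Over all clusters, 3.26% were called higher and 1.34% lower in that comparison. HORMAD1, a meiotic chromosome protein, averaged 7.72 ± 1.84 in EC cells on plastic (SD, n = 5) and 3.87 ± 0.25 in ES cells (SD, n = 6) (limma, adjusted p = 0.00807), and passed in all 18 alternatives. TRIM60 differed by 2.49 (limma, adjusted p = 0.0438) and lost its call in 14 of 18, among them those without any single array but NTERA2. In EC cells on feeders 2 of 10 were called higher, against 1.56% of all clusters, with a list median of 1.41. NLRP7, a gene of the oocyte and early embryo, averaged 7.59 ± 1.43 in EC cells on feeders (SD, n = 3) and 4.31 ± 0.68 in ES cells (SD, n = 6) (limma, adjusted p = 0.0196). DPPA2 averaged 8.81 ± 1.00 in EC cells on feeders (SD, n = 3) and 6.29 ± 0.68 in ES cells (SD, n = 6) (limma, adjusted p = 0.0267). The calls of NLRP7 and DPPA2 were lost in 5 and 8 of 16 alternatives, both of them without 2102Ep, without 833KE and without Shef3, and that of DPPA2 also without Shef 6 or Shef7. On plastic NLRP7 differed by 3.67 (limma, adjusted p = 0.0694) and DPPA2 by 2.38 (0.0832), and neither passed. HORMAD1 differed by 3.12 on feeders (limma, adjusted p = 0.0614) and TRIM60 by 2.16 (0.114), and neither passed there. All 10 markers had positive differences in both comparisons, which share the ES arrays and 3 EC lines. How many of all clusters were positive in both was not counted. The median difference over all clusters was 0.005 on plastic and 0.042 on feeders.

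The 18 measured primed state markers had a list median of -0.29 in EC cells on plastic. Against 3.26% of all clusters called higher and 1.34% lower, 0 of the 18 were called higher and 3 lower. These were the zinc-finger factors SALL2 (-1.46, adjusted p = 0.0135), ZIC2 (-1.29, 0.0250) and ZIC5 (-0.76, 0.0313), whose limma calls were lost in 2, 8 and 10 of 18 alternatives. For ZIC2 and ZIC5 these included leaving out 2102Ep, 833KE, TERA1, H14, Shef3 or Shef7. In EC cells on feeders 1 of 18 was called lower, against 0.731% of all clusters. OTX2, a homeobox factor of the primed epiblast, averaged 6.62 ± 0.54 in EC cells on feeders (SD, n = 3) and 9.72 ± 0.95 in ES cells (SD, n = 6) (limma, adjusted p = 0.0173). Without 833KE the OTX2 call was lost. On plastic OTX2 differed by -1.82 and did not pass (adjusted p = 0.123).

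**Figure D5:**
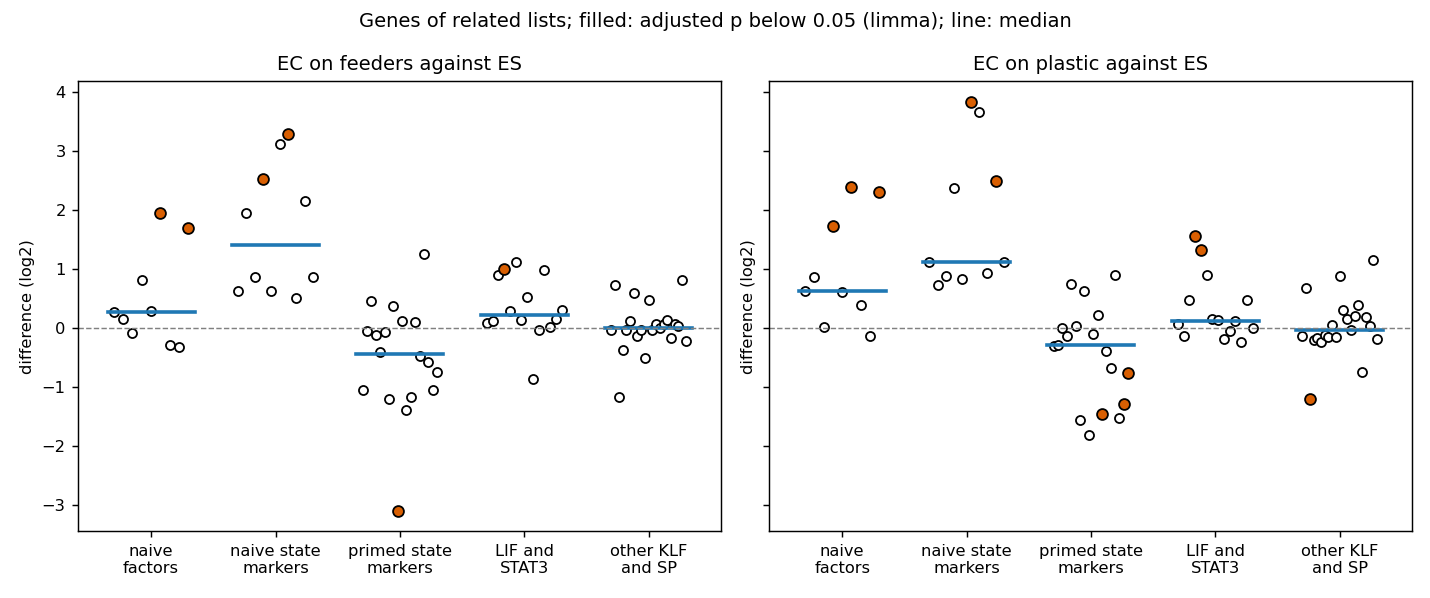
Log2 differences of single genes in 5 lists, for EC cells on feeders against ES cells (left) and EC cells on plastic against ES cells (right); filled points had an adjusted p below 0.05 (limma) and bars are list medians. The naive state markers have medians of 1.41 and 1.12, and the primed state markers -0.45 and -0.29.

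In the LIF and STAT3 pathway, which feeds TFCP2L1 and KLF4 in mouse, 2 of 14 measured genes were called higher in EC cells on plastic and 1 of 14 in EC cells on feeders, and 0 were lower. Of all clusters, 3.26% were called higher on plastic and 1.56% on feeders. IL6R, the interleukin 6 receptor, averaged 7.20 ± 0.40 in EC cells on feeders (SD, n = 3), 7.75 ± 0.97 in EC cells on plastic (SD, n = 5) and 6.19 ± 0.05 in ES cells (SD, n = 6). Its adjusted p was 0.0196 on feeders and 0.0285 on plastic (limma), and its call was lost in 4 of 16 and 9 of 18 alternatives, on feeders without Shef3 and on plastic without 833KE or any ES line but H9. IL6ST, the shared signalling receptor gp130, was called on plastic (1.33, limma, adjusted p = 0.0478), a call lost in 13 of 18 alternatives and without any single array but H9 or NTERA2. LIFR, the LIF receptor, differed by -0.86 on feeders (adjusted p = 0.101) and -0.18 on plastic (adjusted p = 0.805). STAT3 averaged 10.23 in EC cells on feeders, 10.54 in EC cells on plastic and 10.08 in ES cells, and passed in neither comparison.

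Relatives of the members were read in the same way. Of 21 other KLF and SP genes, 0 were called higher and 1 lower in EC cells on plastic, and 0 in EC cells on feeders. That gene was KLF12, a repressor (-1.20, limma, adjusted p = 0.0353), whose call was lost in 12 of 18 alternatives and without any single array but Shef5, NCCIT or NTERA2. These counts of 1 in 21 and, for relatives of the other members, 1 in 13 stand beside 1.34% of all clusters called lower on plastic. On feeders the counts were 0 in 21 and 1 in 13, beside 0.731% of all clusters. Of the 13 relatives, GRHL2, an epithelial factor related to TFCP2L1, was the only one called. It averaged 5.75 ± 0.83 in EC cells on feeders (SD, n = 3), 5.61 ± 0.55 in EC cells on plastic (SD, n = 5) and 7.24 ± 0.19 in ES cells (SD, n = 6). Its limma adjusted p was 0.00284 on plastic, where it passed in all 18 alternatives, and 0.0343 on feeders, where it was lost in 9 of 16, among them those without 2102Ep or any ES line but Shef5. Medians of the other KLF and SP genes were 0.001 on feeders and -0.03 on plastic.

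Markers of other cell types were read in the same fits. Of all clusters, 3.26% were called higher and 1.34% lower on plastic, and 1.56% higher and 0.731% lower on feeders. Of 7 measured primordial germ cell markers, TFAP2C was higher (1.19, limma, adjusted p = 0.00974) and SOX17 lower (-0.65, adjusted p = 0.0273) in EC cells on plastic, and KIT (-1.90, adjusted p = 0.0212) and PDPN (-0.99, adjusted p = 0.0435) were lower in EC cells on feeders. Of these calls only that of TFAP2C passed in every alternative, 18 of 18. That of SOX17 was lost without 2102Ep, TERA1, Shef5 or Shef7, that of KIT without 833KE, Shef 6 or Shef3, and that of PDPN without any single array but NTERA2. Of 14 fibroblast markers 3 collagen genes, COL5A2 (-1.40), COL6A1 (-1.32) and COL1A1 (-1.65), were lower in EC cells on plastic, and 0 passed on feeders. Of 7 endoderm markers 4 were lower in EC cells on plastic, with CER1, a secreted inhibitor of nodal signalling, at -5.31 (limma, adjusted p = 1.08e-05), EOMES at -1.79 and GATA6 at -0.77. The remaining one was SOX17, already given among the germ cell markers, as the gene is on both lists. In EC cells on feeders CER1 was lower by 2.68 (adjusted p = 0.0327) and was the only one of the 7 called, a call lost without 2102Ep or any ES line but Shef5 and Shef7. Of 10 trophoblast and amnion markers 0 passed in any comparison. Whether these other differences take part in those of the naive factors was not tested.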

How the data were processed

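RNA from 14 cultures was hybridised to Human Exon 1.0 ST arrays. The deposited values are log2 values, made by the authors with RMA in Affymetrix Expression Console and analysed with limma, per the submitters' processing notes; versions, RMA settings, genome build and log base are not given in the sources used here, and base 2 was inferred from how far the values spread. Array medians lay between 6.19 and 6.39 at gene level. The number of arrays limits the precision.

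Groups came from the labels. Symbols came from the platform annotation, where 14432 clusters had 1 symbol, 2408 several and 5171 none. The deposited values were fitted unchanged with limma 3.58.1 in R 4.3.3, over all clusters or probesets, with Benjamini-Hochberg adjustment over all of them, 2-sided, with a threshold of 0.05. Feeders against plastic had the line as a block, because the same line in both conditions pairs the arrays. The deviations of a line from its group means correlated at 0.51 in NTERA2, 0.41 in 2102Ep and 0.34 in 833KE. They correlated below 0 between lines. Centring on group means favours such negative values once those within lines are positive, so they are no separate evidence of pairing. Members and lists were chosen with earlier results of these data known. All 9 members were named; from each list up to 3 called genes with the smallest p, or 1 where none was called, and other list genes were named after their values were seen. The label codes stand for no stated batch. The fits were tested on simulated data of 22011 clusters, a few of which were given a difference. Of those given a difference of 2, 91% were recovered for EC on plastic against ES. The share was 86% for EC on feeders against ES and 51% for feeders against plastic. False calls were 13, 14 and 3 in the same order. Differences smaller than 2 were not simulated. Alternatives were quantile normalisation, leaving out each array, dim features, label codes, other spread estimates and probeset medians; arrays with earlier codes and the exon usage fit with a variance for each probeset were chosen after seeing the data.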

Additional observations from a re-analysis of the deposited data

Results flagged for a closer look

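In 18 groups of 5 or 6 arrays the highest and lowest values of each member were compared with the rest of their group, and 2 stood far from the others; chance flags about 1 in 20 such groups. For KLF17 in EC cells on plastic, the gap between 833KE and the next array took 0.814 of the range of the group. For KLF5 in EC cells on plastic, the gap between NTERA2 and the next array took 0.852 of the range. The causes were not tested.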

How the results depend on the processing

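The calls of NR5A2, TFCP2L1 and KLF4 in EC cells on plastic against ES cells held in all 19 alternatives; with 14 arrays, counts over all features moved more. With 1 array left out, the lowest counts of clusters or probesets came without Shef3 at gene level and without 2102Ep at exon level. Leaving out 1 array moved the 1012 called clusters to between 587 and 1257 and the 3 called members to between 3 and 4, and later-coded arrays alone gave 527 clusters. In EC cells on feeders the 504 clusters moved to between 167 and 594 and the 2 members to between 1 and 3 when 1 array was left out. There the spread of all 14 arrays gave 306 clusters, members called were 1 under quantile normalisation, the code block and that spread, and earlier-coded arrays gave 0 clusters and 0 members. Feeders against plastic gave 11 clusters with dim features left out and 1 with no replicate block, in place of 0, and no member; with 1 line left out the count stayed at 0. The replicate block changed no member's call. Later-coded arrays alone were not run there because they leave 1 pair. At exon level the 8080 probesets on plastic moved to between 3699 and 9688 and the 36 of members to between 24 and 42 without 1 array, and on feeders the 2739 moved to between 802 and 3793 and the 14 to between 4 and 23. Exon usage gave 1060 probesets with no dim filter (6 of members) and 59, with 1 of members, with a variance for each probeset.

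Signs turned only for differences that had not passed. KLF2 on plastic against ES turned to -0.081 under quantile normalisation, -0.019 with the code block and in later-coded arrays, -0.12 as a probeset median, and between -0.026 and -0.012 without H14, Shef 6, TERA1 or H9 (-0.026 to 0.077 over all arrays left out). On feeders against ES, PRDM14 turned to 0.12 without NTERA2 (-0.59 to 0.12 over all arrays) and 0.27 in later-coded arrays, KLF2 to 0.026 without 2102Ep (-0.18 to 0.026) and 0.059 in later-coded arrays, KLF5 to -0.055 without 833KE (-0.055 to 0.64) and -0.21 in earlier-coded arrays, TBX3 to 0.12 in later-coded arrays and KLF17 to -0.0060 as a probeset median. On feeders against plastic, NR5A2 turned to 0.10 (-0.58 to 0.10 over the lines) and TBX3 to 0.081 (-0.18 to 0.081) without 2102Ep, and KLF17 to 0.022 (-1.96 to 0.022) without 833KE. The causes were not tested.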
